A study of Mus musculus with 20 samples.

Results

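Chromatin and RNA of 329 mouse zinc finger genes, those whose symbol is Zfp followed by digits alone, were described in mouse embryonic fibroblasts with and without PML, a protein around which nuclear bodies assemble. The genes were chosen by name, not by a measured value, from 20966 genes that the RNA tables name on lines of their own and that have a gene body in the RefSeq annotation of mm10. KO cells were fibroblasts of Pml-null mice and WT cells fibroblasts of wild-type mice, both on the C57BL/6 background, at passage 10 to 15, proliferating, untreated and grown to confluency. Chromatin immunoprecipitation (ChIP) with 1 library per target and genotype had located H3K9me3, H3K27me3, H3, PML and H3.3, the replacement variant of histone H3. H3.3 was read through a Flag or an HA tag in cells transfected with the tagged histone. RNA came from native, untransfected cells, in 1 pair of tables that pools 3 numbered samples per genotype and in 1 pair of tables from 1 unnumbered sample per genotype. The labels state neither how many mice the cells came from nor the deleted part of Pml.

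Zfp genes encode proteins with zinc fingers, small folds that mostly read DNA and in some proteins RNA or other proteins. Many of them are KRAB zinc finger proteins, which bind transposon and imprinted sequences and recruit Trim28 and the H3K9 methyltransferase Setdb1, so that H3K9me3 heterochromatin forms where they bind. The KRAB genes lie in clusters of recent tandem duplicates. In other cell types these clusters are known to carry H3K9me3 over the 3′ exons that code for the finger arrays, together with H3.3 and its chaperone ATRX, while the genes stay transcribed. The symbol Zfp also covers unrelated proteins, for example the mRNA decay factor Zfp36 (tristetraprolin). The tables do not say which of these genes hold a KRAB box.

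Of the 329 genes, 324 matched RefSeq by symbol and 5 by an older symbol, 326 were annotated as protein-coding and 3 as pseudogenes. Their bodies had a median length of 17.1 kb, against 16.4 kb for all genes, ran from 2.21 kb to 456 kb and covered 9.55 Mb together. RNA values were used for 327 genes, since Zfp433 and Zfp781 stood on 2 lines each. Another 4 Zfp symbols stood inside lines that name several genes and were not used. Near-identical paralogs can share reads, so both the regions and the RNA values of clustered Zfp genes are uncertain to the extent that the read assignment, which is not given in the sources used here, could not tell copies apart.

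The libraries differed before any gene was considered. H3K9me3 calls covered 735 Mb in KO and 841 Mb in WT, of which 733 Mb in KO and 306 Mb in WT had a signal of at least 3, the authors' signal value per region. H3.3-HA calls covered 375 Mb in KO and 73.5 Mb in WT. PML calls covered 24.2 Mb in KO and 516 Mb in WT. Pml RNA was still listed, at 10.2 FPKM in KO and 15.0 FPKM in WT in the numbered tables and at 4.22 FPKM in KO and 7.62 FPKM in WT in the unnumbered tables, and a value per gene does not show which part of the gene was read. Of 11 fibroblast markers, 9 in KO and 10 in WT reached 1 FPKM in the numbered tables and all 11 in both unnumbered tables, with sums of 4681 FPKM in KO and 10387 FPKM in WT for the numbered pair. Xist, transcribed from the inactive X, was at 0.052 FPKM in KO and 19.5 FPKM in WT of the numbered pair while the Y-linked Ddx3y was at 7.67 FPKM in KO and 0.038 FPKM in WT, so sex and genotype cannot be told apart in that pair. Both genotypes of the unnumbered pair listed both genes, Xist at 8.25 FPKM in KO and 5.89 FPKM in WT and Ddx3y at 11.4 FPKM in KO and 21.7 FPKM in WT. In such bulk samples fewer cells of a type and less RNA per cell cannot be told apart either. Since each value comes from 1 library or 1 pooled table, no test across replicates was possible, and every difference below describes these libraries.

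Zfp promoters combined H3.3-Flag and H3K9me3 in several ways, and 3 of them are shown by the 2 genes each with the highest mean RNA, to let the letters be read beside the marks. The windows run from 250 bases before to 50 bases after the RefSeq start (GRCm38.p6, the assembly of mm10), are written 5′ to 3′ on the gene's strand and have CpG sites in capitals. In 16 genes the window carried H3.3-Flag and no H3K9me3 in both genotypes while the body was covered by H3K9me3 in both. Zfp260 (chr7:30094826-30095125, plus strand) and Zfp263 (chr16:3743849-3744148, plus strand) are of this kind:
Zfp260: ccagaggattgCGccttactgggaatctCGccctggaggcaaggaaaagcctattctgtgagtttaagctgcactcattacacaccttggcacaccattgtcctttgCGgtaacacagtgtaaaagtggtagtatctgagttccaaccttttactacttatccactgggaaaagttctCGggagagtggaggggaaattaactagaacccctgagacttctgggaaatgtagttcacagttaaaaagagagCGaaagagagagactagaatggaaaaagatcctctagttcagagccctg
Zfp263: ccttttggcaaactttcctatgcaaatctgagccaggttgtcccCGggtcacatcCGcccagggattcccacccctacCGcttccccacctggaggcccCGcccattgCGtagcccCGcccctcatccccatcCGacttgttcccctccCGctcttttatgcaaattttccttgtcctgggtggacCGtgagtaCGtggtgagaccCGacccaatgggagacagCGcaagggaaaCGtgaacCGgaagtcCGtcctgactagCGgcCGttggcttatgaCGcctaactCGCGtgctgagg
In 31 genes H3K9me3 covered window and body in both genotypes and H3.3-Flag did not cover the window. They include Zfp275 (chrX:73342370-73342669, plus strand) and Zfp809 (chr9:22225453-22225752, plus strand), which starts the silencing of certain endogenous retroviruses in mouse embryos:
Zfp275: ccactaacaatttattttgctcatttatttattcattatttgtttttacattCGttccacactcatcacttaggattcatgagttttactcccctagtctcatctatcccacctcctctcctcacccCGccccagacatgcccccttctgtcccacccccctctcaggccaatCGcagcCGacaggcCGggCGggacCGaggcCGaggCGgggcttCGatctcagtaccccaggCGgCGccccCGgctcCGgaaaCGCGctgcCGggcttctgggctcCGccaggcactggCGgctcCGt
Zfp809: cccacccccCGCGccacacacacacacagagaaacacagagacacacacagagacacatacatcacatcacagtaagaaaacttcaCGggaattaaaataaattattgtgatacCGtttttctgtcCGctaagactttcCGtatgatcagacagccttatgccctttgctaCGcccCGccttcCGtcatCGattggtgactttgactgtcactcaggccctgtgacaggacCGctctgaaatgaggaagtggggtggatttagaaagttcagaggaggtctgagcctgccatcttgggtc
In 13 genes the window was under both calls in both genotypes, whatever the cover of the body. These include Zfp579 (chr7:4996052-4996351, minus strand) and Zfp68 (chr5:138619694-138619993, minus strand):
Zfp579: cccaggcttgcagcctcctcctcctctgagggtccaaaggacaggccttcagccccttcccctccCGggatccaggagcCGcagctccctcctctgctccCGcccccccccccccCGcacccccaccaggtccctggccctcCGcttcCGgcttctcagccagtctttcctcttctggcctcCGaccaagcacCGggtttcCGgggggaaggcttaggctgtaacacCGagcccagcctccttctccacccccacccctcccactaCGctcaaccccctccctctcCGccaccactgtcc
Zfp68: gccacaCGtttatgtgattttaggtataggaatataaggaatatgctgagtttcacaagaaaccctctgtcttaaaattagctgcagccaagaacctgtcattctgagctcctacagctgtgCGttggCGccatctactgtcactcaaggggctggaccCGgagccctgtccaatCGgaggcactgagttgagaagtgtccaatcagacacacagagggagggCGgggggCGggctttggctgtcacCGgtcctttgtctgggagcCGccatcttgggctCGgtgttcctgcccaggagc
The 6 windows ranged from 5 CpG sites in Zfp260 to 20 in Zfp263 and Zfp275, so the first pair held both the lowest and the highest count. The H3K9me3 calls over the bodies of Zfp275 and Zfp579 in WT had a signal under 3, and those of the other 4 genes a signal of at least 3.

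Zfp gene bodies were far more often under H3K9me3 than genes at large, in both genotypes. At least 50% of the body lay under H3K9me3 calls in 143 of 329 Zfp genes in KO and 156 in WT, 43.5% and 47.4% of them, against 24.8% of all genes in KO and 17.5% of all genes in WT. With a signal of at least 3 the counts were 143 genes in KO and 133 in WT, 43.5% and 40.4%, against 24.7% of all genes in KO and 6.87% of all genes in WT. In WT the strict calls thus held Zfp genes about as often as all calls did, while most other genes dropped out. With that minimum, both genotypes shared 99 Zfp genes, 30.1% against 4.29% of all genes. Over all calls both genotypes shared 112 covered Zfp genes, 34.0% of the family against 10.1% of all genes, and 82 Zfp genes, 24.9% against 48.8% of all genes, had no H3K9me3 call in either genotype.

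**Figure D1:**
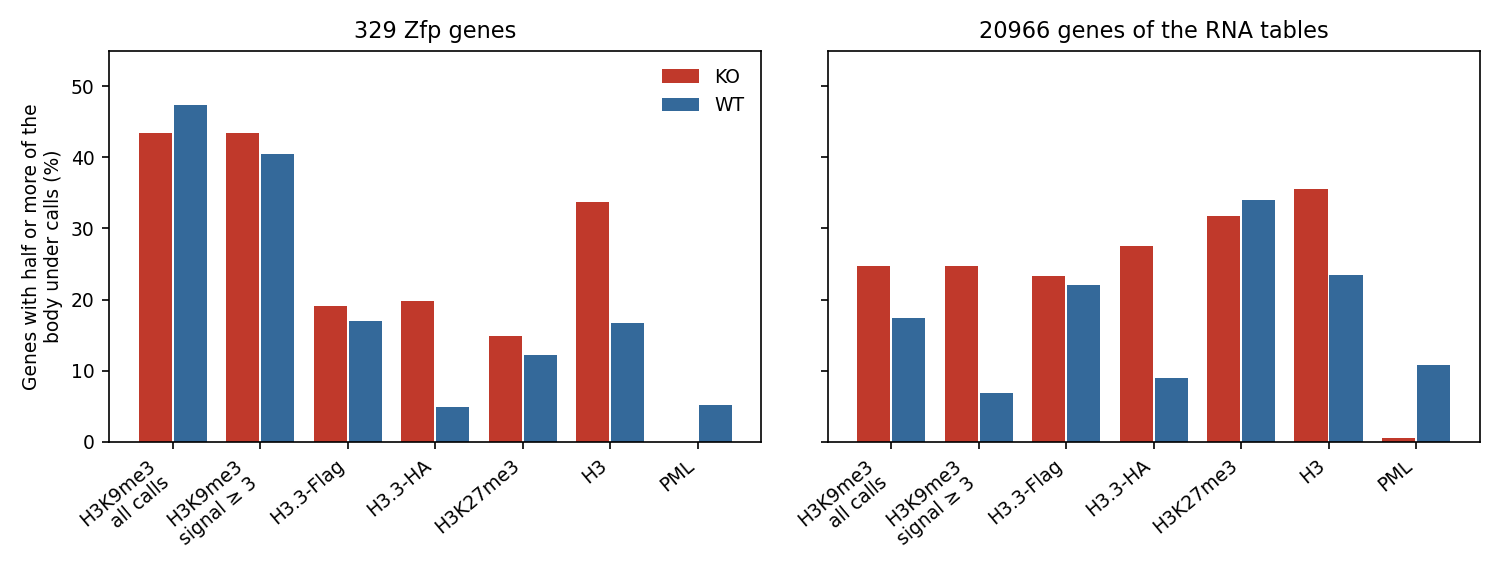
Share of genes (%, vertical axis) with 50% or more of the gene body under calls of each target, for 329 Zfp genes (left) and 20966 genes (right), KO bars left of WT bars, 1 library per bar. H3K9me3 held 43.5% of Zfp genes in KO and 47.4% in WT, and PML 0% in KO and 5.17% in WT.

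Over all Zfp bodies joined together, H3K9me3 covered 41.7% of bases in KO and 37.8% in WT, a difference of 3.88 percentage points. Over the bodies of all genes it covered 25.1% in KO and 20.8% in WT, a similar difference of 4.34. The Zfp difference was 11.7 on chromosomes 1 to 9 and X, against 4.46 for all genes. On chromosomes 10 to 19 it was -7.70, against 4.16 for all genes. Without the bases called in H3 the Zfp difference was -4.55. The pooled Zfp difference rested on 2 long genes. Zfp536, which represses neuronal differentiation and has a body of 456 kb, was covered over 77.9% in KO and 4.61% in WT. Zfp423, which commits cells to the fat lineage and has a body of 300.2 kb, was covered over 77.0% in KO and 11.7% in WT. Without these 2 genes, a choice made after their values were seen, H3K9me3 covered 38.6% of bases in KO and 40.5% in WT. Both genes carried H3K27me3 over 94.1% or more of the body in each genotype, and both had H3 calls over 84.2% or more in each genotype.

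H3K9me3 cover was lower in KO in clustered Zfp genes. Over all calls, though not at a signal of at least 3, scattered genes hardly differed once the same 2 long genes were set aside. Runs of at least 5 Zfp genes with gaps of at most 500 kb gave 14 clusters with 135 genes, on chromosomes 6, 7, 8, 9, 13 and 17, and 194 genes stood outside. H3K9me3 covered 52.7% of bases in KO and 61.0% in WT in clustered genes. In scattered genes it covered 37.9% in KO and 29.9% in WT, but 33.2% in KO and 32.6% in WT without Zfp536 and Zfp423. Gene by gene, 78 scattered genes in KO and 77 in WT were covered, with median shares of 20.6% in KO and 23.1% in WT, while 65 clustered genes in KO and 79 in WT were covered. Cover was lower in KO in 10 of the 14 clusters, higher in 3 and equal in 1. With a signal of at least 3, clustered genes stood at 52.7% in KO and 59.3% in WT, and 9 clusters were lower in KO, 4 higher and 1 equal. In scattered genes that minimum left 37.9% in KO and 19.2% in WT, so the weak WT calls lay mostly outside the clusters. Without Zfp536 and Zfp423 it left 33.2% in KO and 21.1% in WT in scattered genes, beside 25.1% in KO and 7.84% in WT over all genes.

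**Figure D2:**
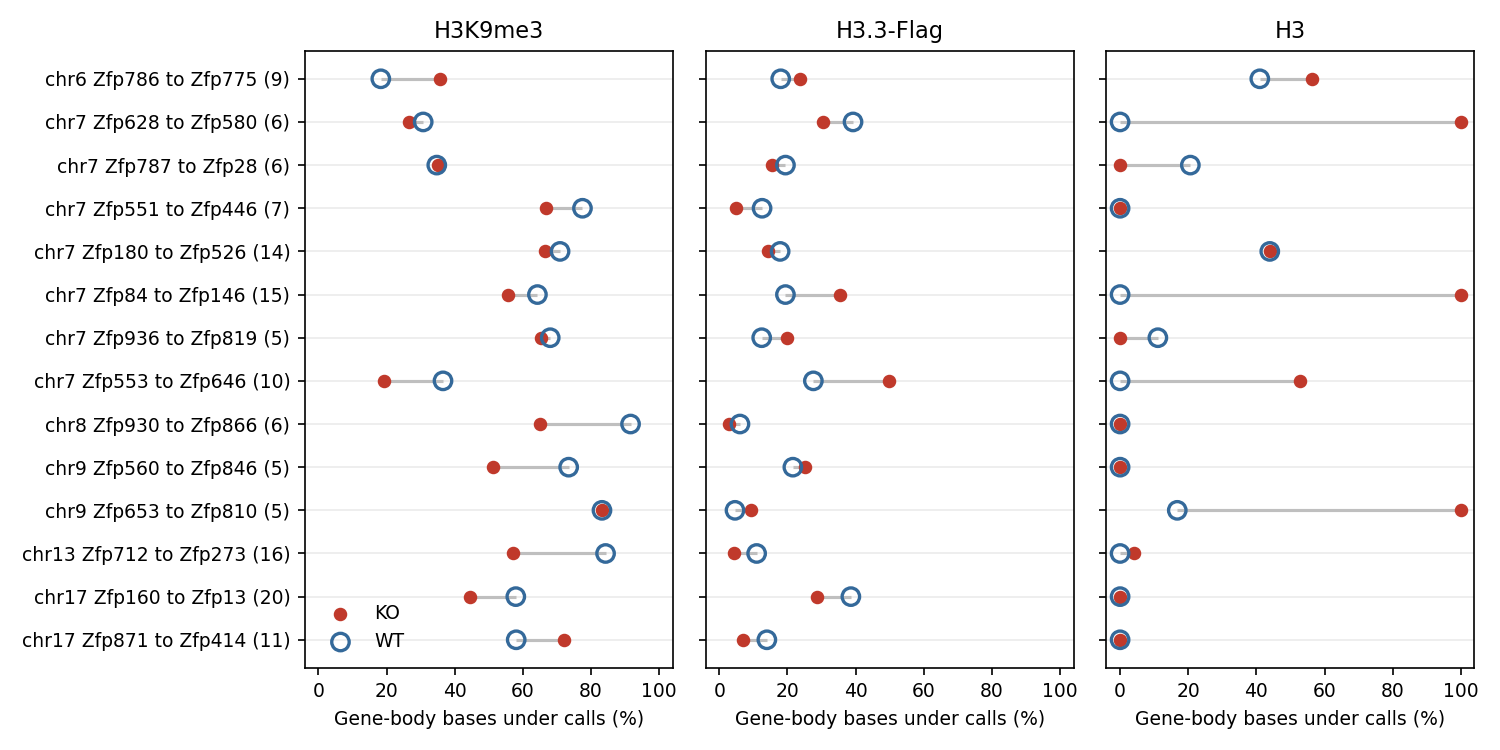
Gene-body bases under calls (%, horizontal axis) of H3K9me3, H3.3-Flag and H3 in the 14 Zfp clusters, with the number of genes in brackets, filled points for KO and open circles for WT, 1 library per point. H3K9me3 was lower in KO in 10 clusters, and H3 calls held all bases of 3 clusters in KO and of none in WT.

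The cluster of 16 genes from Zfp712 to Zfp273 (chr13:67038594-67827000) had the largest H3K9me3 deficit in KO, with 57.1% of bases in KO and 84.3% in WT. Within it Zfp953 and Zfp429 were covered over 0% in KO and 100% in WT, and Zfp459 over 28.7% in KO and 100% in WT. Their neighbours Zfp58, Zfp87 and Zfp458 were covered over 100% in both genotypes, so neighbours within the cluster differed. H3 calls covered 4.22% of this cluster in KO and 0% in WT. The cluster from Zfp930 to Zfp866 (chr8:69209018-69774911, 6 genes) followed, with 64.9% in KO and 91.6% in WT. There Zfp868 and Zfp963 had 0% in KO and 100% in WT, while Zfp964 had 100% in both.

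Near Zfp560 (chr9:20345136-20605404, 5 genes) H3K9me3 covered 51.1% in KO and 73.4% in WT. In the largest cluster, 20 genes from Zfp160 to Zfp13 over chr17:21008941-23599755, it covered 44.4% in KO and 57.9% in WT. One WT region of 610 kb there (chr17:21740001-22350000, signal 13.8) held 4 Zfp genes whole, Zfp820, Zfp942, Zfp943 and Zfp947. The longest KO region that held Zfp genes whole ran over 231 kb (chr17:21919001-22150000, signal 13.2) and held Zfp942 and Zfp943. Zfp820 accordingly had 0.43% in KO and 100% in WT, and Zfp947 25.9% in KO and 100% in WT.

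Further clusters with less H3K9me3 in KO include that from Zfp553 to Zfp646 on chromosome 7, with 19.2% in KO and 36.6% in WT, and that from Zfp551 to Zfp446, with 66.9% in KO and 77.5% in WT. Only 4 of the 14 clusters were equal or higher in KO, and 3 of them follow. The 4 adjoining genes Zfp872, Zfp809, Zfp599 and Zfp810 lay whole inside 1 H3K9me3 region in each genotype, of 178 kb and signal 19.6 in KO (chr9:22147001-22325000) and of 161 kb and signal 16.9 in WT (chr9:22166001-22327000). That cluster stood at 83.2% in both genotypes, although H3 calls covered 100% of it in KO and 16.8% in WT. The neighbouring gene Zfp653 in the same cluster had no H3K9me3 call in either genotype. The cluster from Zfp871 to Zfp414 (chr17:32765496-33631716, 11 genes) was higher, with 72.1% in KO and 58.0% in WT, and held no H3 call in either genotype. Zfp811 accounted for part of this, with 100% in KO and 0% in WT, as did Zfp799, with 84.7% in KO and 20.3% in WT. The cluster from Zfp786 to Zfp775 (chr6:47815536-48621548, 9 genes) was also higher, with 35.6% in KO and 18.3% in WT, beside H3 calls over 56.4% in KO and 41.0% in WT.

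The cluster of 15 genes from Zfp84 to Zfp146 (chr7:29768552-30169775) had less H3K9me3 and more H3.3-Flag in KO. H3K9me3 covered 55.5% in KO and 64.3% in WT, and H3.3-Flag 35.6% in KO and 19.4% in WT. Zfp568, which represses a placental transcript of Igf2 in mouse embryos, had no H3K9me3 in KO and 20.3% in WT, and H3.3-Flag over 100% in KO and 22.7% in WT. Its neighbours Zfp14, Zfp82 and Zfp566 likewise had no H3K9me3 in KO and between 17.7% and 44.2% in WT. In the same cluster Zfp74 had 100% in KO and 80.7% in WT, and Zfp382 had H3K9me3 and H3.3-Flag over 100% in both genotypes. H3 calls covered all 15 genes in KO and none in WT, and their part in these differences was not tested.

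Gene by gene, the H3K9me3-covered share was higher in KO by at least 50 percentage points in 27 Zfp genes and lower by as much in 32. The same step up was found in 13.6% of all genes and the step down in 6.7%, against 8.21% and 9.73% of Zfp genes. With a signal of at least 3 the step up was found in 41 Zfp genes and the step down in 24, 12.5% and 7.29%, against 19.9% and 2.4% of all genes. Of the 32 genes with the step down, 24 were covered in WT with a signal of at least 3. H3 calls covered 16 of the 27 in KO and 11 in WT, and 6 of the 32 in KO and 3 in WT. They covered 33.7% of all Zfp genes in KO and 16.7% in WT, and 35.6% of all genes in KO and 23.5% in WT. H3 was not counted over all genes with the same H3K9me3 steps. Without the bases called in H3 10 genes showed the step up. Of the 27 genes 7 were in clusters and 4 on chromosome 5, where H3K9me3 covered 82.5% of Zfp bases in KO and 45% in WT and 81.7% of all gene bases in KO and 28.2% in WT. Of the 32 genes 16 were in clusters and 0 on chromosome 5.

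Among genes with the largest step up, Zfp775, Zfp641, Zfp655, Zfp811 and Zfp954 had H3K9me3 over 100% of the body in KO and 0% in WT. So did Zfp750, a regulator of epidermal differentiation with RNA under 0.1 FPKM in all 4 tables. Zfp655 kept H3.3-Flag over 100% of the body in both genotypes and its RNA was 12.9 FPKM in KO and 12 FPKM in WT in the unnumbered tables. Among genes with the largest step down, Zfp42, the pluripotency marker Rex1, had 0% in KO and 100% in WT, all of it with a signal under 3, and RNA of at most 0.08 FPKM in each table. Zfp616, Zfp735 and Zfp791 likewise had 0% in KO and 100% in WT at a signal under 3. In contrast Zfp868, Zfp953, Zfp882, Zfp963 and Zfp429 had 0% in KO and 100% in WT with strong calls. Zfp281, a regulator of pluripotency genes in embryonic stem cells, had 0% in KO and 80.0% in WT beside H3.3-Flag over 100% in both.

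Zfp genes with a known role in silencing varied, Zfp568 being described above. Zfp445, which maintains imprints together with Zfp57, was covered over 100% in KO and 95.1% in WT. Zfp932, which binds endogenous retroviruses in mouse embryonic stem cells, and Zfp809 were covered over 100% in both genotypes. Zfp57 itself had no H3K9me3, H3.3-Flag or H3K27me3 call in either genotype.

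H3K9me3 leaned to the 3′ end of Zfp genes and H3.3-Flag to the 5′ end. Among 225 Zfp genes of at least 10 kb with a known strand, H3K9me3 covered the 3′ side, from the midpoint of the body on, more than the 5′ side in 68 genes in KO and 85 in WT, and the 5′ side more in 14 in KO and 17 in WT. Thus 30.2% of them in KO and 37.8% in WT leaned to the 3′ end. Among 10361 genes of that length, the 3′ side was the more covered in 16.8% in KO and 20.4% in WT, and the 5′ side in 10.4% in KO and 17.3% in WT. The mean H3K9me3 cover of Zfp genes was 56.5% in KO and 60.5% in WT in the 3′ side, and 42.4% in KO and 44.4% in WT in the 5′ side. In clusters the lean was steeper, with 62.3% in KO and 71.1% in WT in the 3′ side and 42.9% in KO and 49.5% in WT in the 5′ side.

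H3.3-Flag covered the 5′ side of Zfp genes more in 90 genes in KO and 116 in WT, and the 3′ side more in 20 in KO and 23 in WT. Of all genes of that length 29.9% in KO and 36.8% in WT had more cover in the 5′ side, and 20.1% in KO and 20.6% in WT in the 3′ side. H3.3-HA had the same lean in WT, with 48 genes to the 5′ end and 8 to the 3′ end, beside 20.7% and 10.4% of all genes. In KO 6 genes leaned to the 5′ end and 5 to the 3′ end, beside 3.01% and 5.79% of all genes, and the other 214 were covered alike on both sides or not at all. At the gene start itself H3K9me3 lay over 33.8% of the 225 genes in KO and 32.9% in WT, and 10 kb into the gene over 49.8% in KO and 55.6% in WT. Between 20 kb before and 20 kb after the start, H3K9me3 was lowest and H3.3-Flag highest at the start itself, with H3K9me3 as low 1 kb before it in KO and 1 kb after it in WT. H3.3-Flag lay over the start of 44.9% of Zfp genes in KO and 55.1% in WT, against 36.8% of all genes in KO and 44.7% in WT, and 10 kb inside over 17.3% in KO and 16% in WT.

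**Figure D3:**
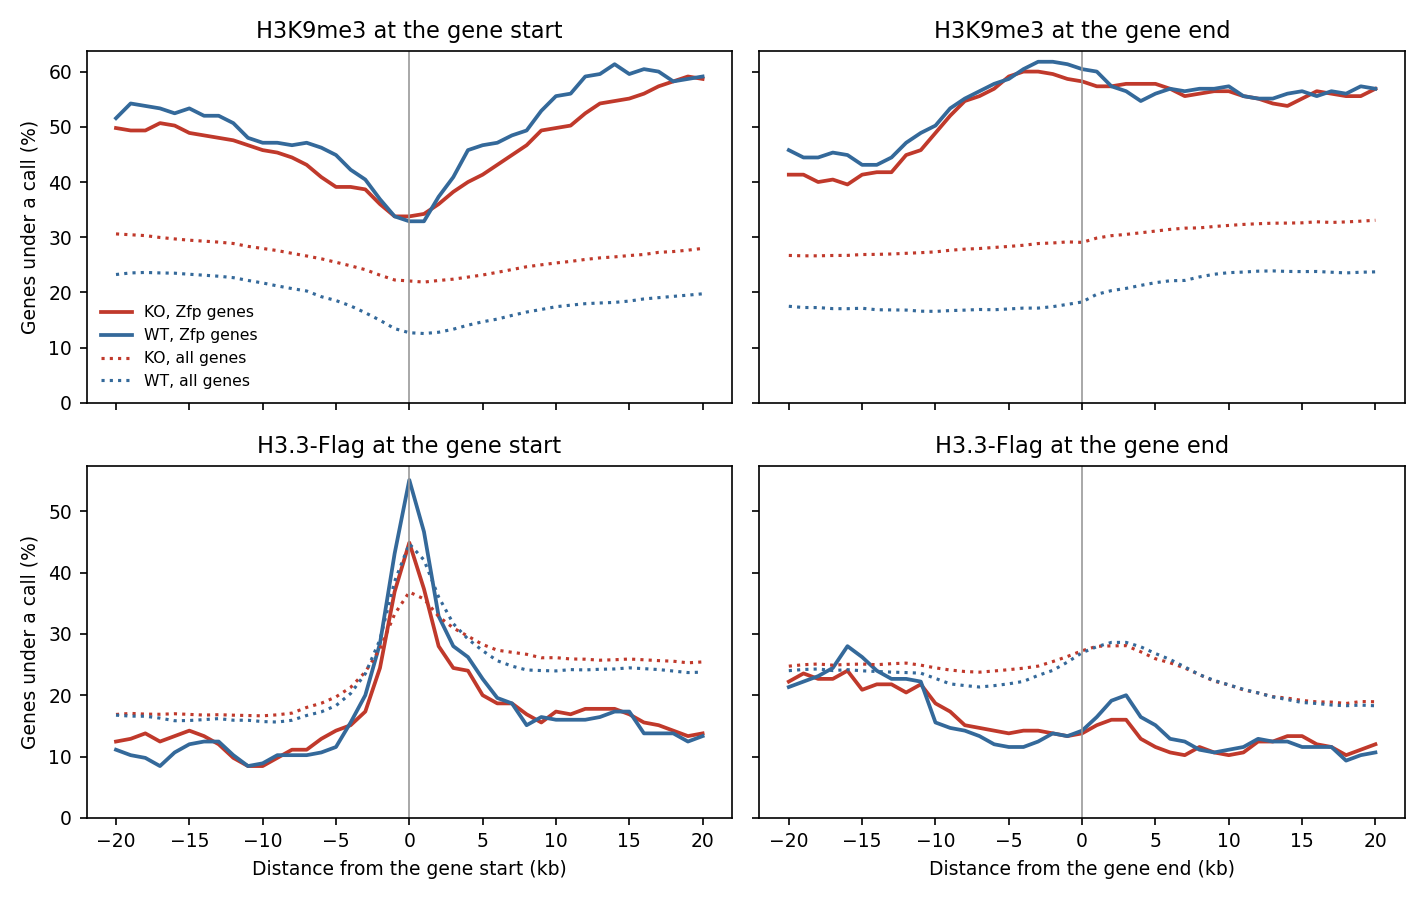
Share of genes of at least 10 kb (%, vertical axis) under a call of H3K9me3 (top) or H3.3-Flag (bottom), by distance in kb from the gene start (left) and end (right), negative values lying before the start or end, for 225 Zfp genes (solid lines) and 10361 genes (dotted lines), KO in red and WT in blue. H3.3-Flag peaks at the start of Zfp genes, at 44.9% in KO and 55.1% in WT, where H3K9me3 dips to 33.8% in KO and 32.9% in WT.

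H3.3-Flag and H3K9me3 met on more bases in Zfp genes than at large, though not on a larger share of the H3K9me3 bases in KO. Both H3.3-Flag and H3K9me3 were called on 3.97% of Zfp bases in KO and 3.58% in WT, against 2.41% of all gene bases in KO and 1.34% in WT. In clusters the figures were 6.08% in KO and 7.44% in WT. Seen from H3.3, 17.3% of the H3.3-Flag bases of Zfp genes in KO and 16.5% in WT lay under H3K9me3, against 11.6% in KO and 7.02% in WT over all genes. In clustered Zfp genes, where H3K9me3 itself was wider, the shares were 30.1% in KO and 36.0% in WT. Seen from H3K9me3, 9.52% of its bases in Zfp genes in KO and 9.45% in WT carried H3.3-Flag, against 9.59% in KO and 6.45% in WT over all genes. H3.3-Flag lay on 22.9% of all Zfp bases in KO and 21.6% in WT, so it was rarer under H3K9me3 than over Zfp bodies as a whole. The shares of H3K9me3 bases with H3.3-HA were 17.7% in KO and 2.04% in WT in Zfp genes, against 28.2% in KO and 1.77% in WT over all genes. The body of Zfp382 carried both calls over 100% in both genotypes.

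Promoter windows were available for 268 Zfp genes, and for 235 of them the window lay within 1 kb of the start of the gene body. H3.3-Flag covered the window in 123 genes in KO and 162 in WT, 45.9% and 60.4%, against 34.4% of all windows in KO and 41.2% in WT. H3K9me3 covered it in 86 genes in KO and 85 in WT, 32.1% and 31.7%, against 22.9% of all windows in KO and 16.8% in WT. Both calls met on 25 windows in KO and 35 in WT, 9.33% and 13.1%, against 2.8% of all windows in KO and 1.03% in WT. Among the 101 Zfp genes with H3K9me3 over the body in both genotypes, the window carried H3.3-Flag in 40 in KO and 54 in WT, and neither mark in 14 in KO and 9 in WT. Among the 65 Zfp genes with no H3K9me3 call on the body in either, it carried H3.3-Flag in 39 in KO and 46 in WT.

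The sequence of the windows differed little from other promoters in CpG content. The median was 14 CpG sites in Zfp windows and 14 in all 16023 windows, with quartiles of 9 and 21 in Zfp windows and 4 and 25 in all windows. Windows of genes with H3K9me3 over the body in both genotypes had a median of 11 CpG sites, and those of genes with no call a median of 19. Motifs were searched on both strands as fixed letters. CCGGAAGT, the ETS letters, stood in 10.4% of Zfp windows and 5.38% of all windows, and AANATGGCG, the letters of YY1, in 7.46% and 3.38%. TATAAA stood in 6.72% of Zfp windows and 12.8% of all windows. GGGCGG, the Sp1 letters, stood in 45.5% and 47.6%, and TGACGTCA, the CREB letters, in 3.36% and 2.4%. Of the windows printed above, Zfp263 held CCGGAAGT and Zfp68 held AANATGGCG, and GGGCGG stood in Zfp263, Zfp275, Zfp579 and Zfp68.

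H3K27me3, the mark of Polycomb repression, was rarer on Zfp genes than elsewhere. It covered at least 50% of the body in 49 Zfp genes in KO and 40 in WT, 14.9% and 12.2%, against 31.7% of all genes in KO and 34% in WT. In clusters it covered 10.8% of bases in KO and 8.57% in WT, and in scattered genes 26.8% in KO and 23.5% in WT. It covered the whole body in both genotypes in 22 Zfp genes, a count that was not made for all genes. The long genes named above had high values, with Zfp423 at 100% in both genotypes and Zfp536 at 100% in KO and 94.1% in WT. On chromosome 5 it covered 29.7% of Zfp bases in KO and 4.48% in WT, beside 46.7% of all gene bases in KO and 33.4% in WT. Zfp951 on that chromosome was at 100% in KO and 0% in WT. H3K27me3 covered 35 Zfp genes in both genotypes, 10.6% against 27.2% of all genes. Its share was higher in KO by at least 50 percentage points in 11 Zfp genes and lower in 4, 3.34% and 1.22%, against 4.18% and 5.88% of all genes.

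H3.3-Flag covered at least 50% of the body in 63 Zfp genes in KO and 56 in WT, 19.1% and 17.0%, against 23.3% of all genes in KO and 22.1% in WT. It covered 42 in both, 12.8% against 18.5% of all genes, and differed by at least 50 percentage points upward in 11 and downward in 7, against 2.92% and 2.58% of all genes. The genes it covered whole in both genotypes include Zfp207, a spindle assembly factor, the mRNA decay factor Zfp36 and the ribosome biogenesis factor Zfp622, all without H3K9me3. H3.3-HA covered at least 50% of the body in 65 Zfp genes in KO and 16 in WT, 19.8% and 4.86%. The shares of all genes were 27.5% in KO and 9.02% in WT. It covered 8 in both, 2.43% against 5.96% of all genes, and was higher by at least 50 percentage points in 57 Zfp genes and lower in 8, against 21.2% and 3.04% of all genes. With a signal of at least 3 it was the other way round, with 2 Zfp genes in KO and 16 in WT, against 4.19% of all genes in KO and 8.91% in WT. The tags thus differed on H3.3 over Zfp bodies. H3 calls covered 111 Zfp genes in KO and 55 in WT, 33.7% and 16.7%, against 35.6% of all genes in KO and 23.5% in WT. H3 covered 49 in both, 14.9% against 19.9% of all genes, and was higher by at least 50 percentage points in 62 and lower in 6, against 15.7% and 3.57% of all genes. All 6 genes from Zfp628 to Zfp580 on chromosome 7 had H3 over 100% in KO and 0% in WT.

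PML calls held few Zfp genes. At least 50% of the body lay under PML in 0 Zfp genes in KO and 17 in WT, 0% and 5.17%, against 0.51% of all genes in KO and 10.8% in WT. The share was lower in KO by at least 50 percentage points in all 17, and in 10.3% of all genes. Of these 17 genes 13 were covered by H3K9me3 in KO and 16 in WT, beside 24.8% of all genes in KO and 17.5% in WT. All genes under WT PML calls were not counted for H3K9me3 or H3K27me3. The values of these 17 therefore cannot be called particular to Zfp genes. Joined together they had H3K9me3 over 81.7% of bases in KO and 54.6% in WT, and H3K27me3 over 72.6% in KO and 57.2% in WT. Joined values weigh long genes most, and Zfp536, at 456 kb the longest, had the large H3K9me3 rise in KO given above. Joined values without Zfp536 were not computed. Gene by gene H3K9me3 was equal in 11, lower in KO in 4 and higher in KO in 2, Zfp536 and Zfp831. The 4 lower ones were Zfp616, Zfp735 and Zfp551, each at 0% in KO, and Zfp317, at 14.4% in KO and 57.7% in WT. H3K27me3 was higher in KO in 9 of the 17 and lower in 1. For Zfp442 it was 71.4% in KO and 12.2% in WT, with H3K9me3 over 100% in both. Only 3 of the 135 clustered genes were in the PML calls of WT, Zfp551, Zfp606 and Zfp936.

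H3K9me3-covered Zfp genes were transcribed. RNA is given in FPKM, fragments scaled by transcript length and by mapped fragments. Among Zfp genes with H3K9me3 over at least 50% of the body, 67.8% of 143 in KO and 62.2% of 156 in WT reached 1 FPKM in the numbered tables. Of all genes with such cover, 26.3% in KO and 12.3% in WT did. In the unnumbered tables the shares were 79.0% of Zfp genes in KO and 84.6% in WT, against 28.9% of all such genes in KO and 16.9% in WT. The levels were low but not near 0, with medians of 1.8 FPKM in KO and 1.53 FPKM in WT in the numbered tables and of 2.96 FPKM in KO and 3.11 FPKM in WT in the unnumbered ones. Zfp genes without an H3K9me3 call in that genotype had higher medians, of 4.39 FPKM in KO and 4.75 FPKM in WT in the numbered tables and of 4.72 FPKM in KO and 5.10 FPKM in WT in the unnumbered ones. Zfp260 had H3K9me3 over 82.7% of the body in both genotypes. Its RNA was at 31.8 FPKM in KO and 34.3 FPKM in WT in the unnumbered tables. In the numbered tables it was lower, at 9.62 FPKM in KO and 9.84 FPKM in WT. Zfp146 was at 28.2 FPKM in KO and 29.4 FPKM in WT in the unnumbered tables, with H3K9me3 over 80.9% in both genotypes.

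**Figure D4:**
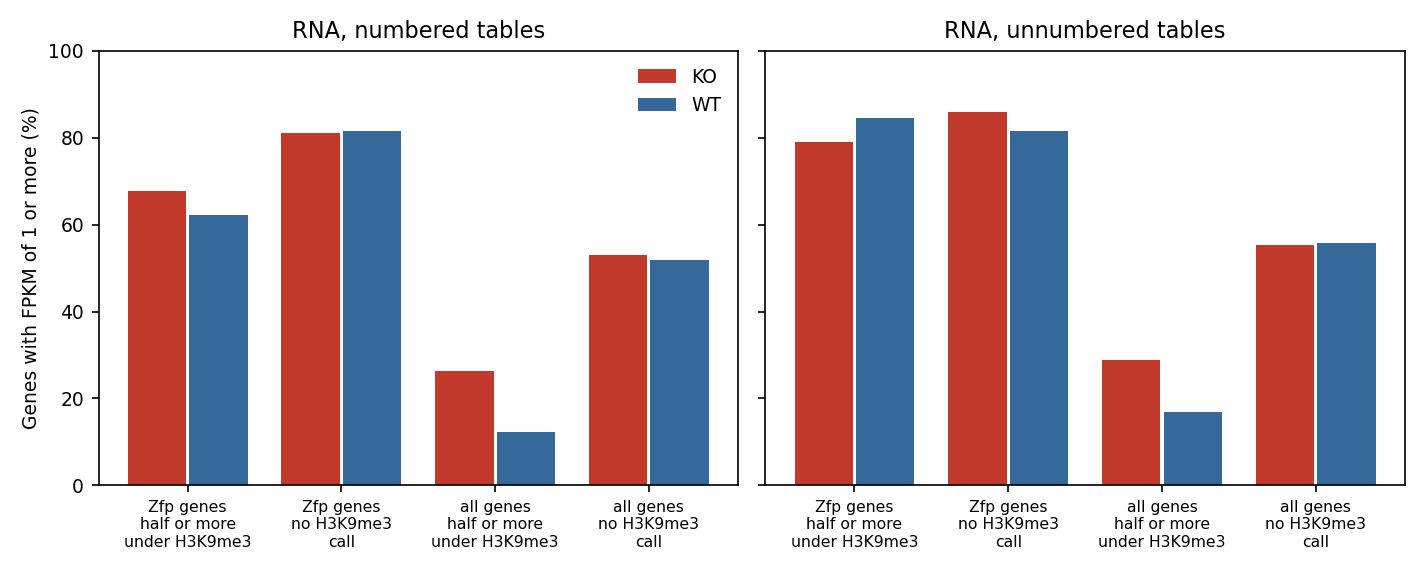
Share of genes with an FPKM of at least 1 (%, vertical axis) among genes with 50% or more of the body under H3K9me3 and genes with no H3K9me3 call, for Zfp genes and all genes, in the numbered (left) and unnumbered tables (right), KO left of WT, 1 table per bar. H3K9me3-covered Zfp genes stand between 62.2% and 84.6%, H3K9me3-covered genes at large between 12.3% and 28.9%.

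RNA of Zfp genes differed little between KO and WT, and the 2 pairs of tables pointed to different genes. Differences are KO minus WT of log2(FPKM + 1), which understates the change of low genes, for genes at 1 FPKM or more in either genotype. For the numbered pair 5 of 250 Zfp genes were at least 2-fold higher in KO and 18 at least 2-fold lower, 2% and 7.2%, against 6.5% and 15.7% of all 11055 genes. Their median difference was 0.17, against 0.06 for all genes. For the unnumbered pair 0 of 281 Zfp genes were that much higher and 1 was that much lower, 0% and 0.36%, against 1.74% and 3.83% of all 11687 genes. The median was -0.03 there, against 0.01 for all genes.

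**Figure D5:**
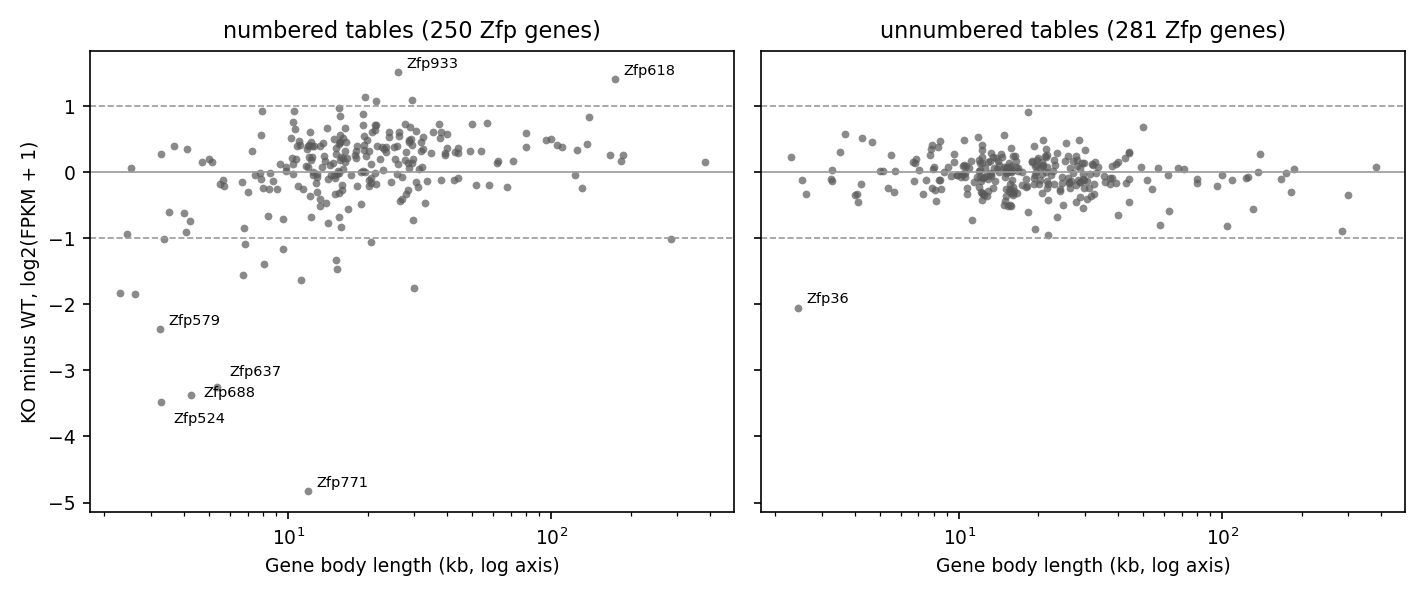
RNA difference of Zfp genes, KO minus WT of log2(FPKM + 1) (vertical axis), against gene body length in kb (horizontal log axis), for 250 genes of the numbered (left) and 281 of the unnumbered tables (right), 1 point per gene with dashed lines at a 2-fold difference. The lowest points of the numbered tables, Zfp771 at -4.83 and Zfp524 at -3.48, lie at 0.18 and 0.04 in the unnumbered tables.

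In the numbered tables the deepest difference was that of Zfp771 (chr7:127242996-127254872), at 10.1 FPKM in KO and 315 FPKM in WT, a log2 difference of -4.83. In the unnumbered tables it stood at 25.8 FPKM in KO and 22.6 FPKM in WT. Zfp524 was at 3.34 FPKM in KO and 47.4 FPKM in WT in the numbered tables, and at 6.03 FPKM in KO and 5.85 FPKM in WT in the unnumbered ones. Zfp688 was at 3.10 FPKM in KO and 41.3 FPKM in WT, but at 8.44 FPKM in KO and 5.55 FPKM in WT in the unnumbered pair. Zfp637 was at 13.9 FPKM in KO and 140 FPKM in WT, and at 26.3 FPKM in KO and 31.3 FPKM in WT in the unnumbered pair. Zfp579 and Zfp414 followed with differences of -2.38 and -1.84, against -0.10 and -0.33 in the unnumbered pair. All 6 genes therefore had a WT value in the numbered tables far above the other 3 values.

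The lower genes were mostly short, though their bodies ran from 2.29 kb to 286 kb. The 18 had a median body of 7.46 kb, against 16.6 kb for the 250 genes compared, and 11 of the 45 Zfp genes under 10 kb were among them, 24.4%, with 7 of the 205 longer ones, 3.41%. All genes showed the same split, with 32.7% of those under 10 kb at least 2-fold lower and 9.5% of the longer ones. A low value thus moved with gene length across the numbered tables and not in Zfp genes alone. Of the 18 genes, 4 lay in the cluster of 6 from Zfp628 to Zfp580 on chromosome 7, where H3 calls covered 100% in KO and 0% in WT, and 11 had no H3K9me3 call in either genotype. Of the 250 genes compared, 69 had no such call. The part of length, sex or H3 in these differences was not tested.

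The 5 Zfp genes that were at least 2-fold higher in KO in the numbered tables were Zfp933, Zfp618, Zfp37, Zfp52 and Zfp605. Zfp933 was at 2.21 FPKM in KO and 0.12 FPKM in WT, a difference of 1.52, with H3K9me3 over 76.6% in KO and 91.9% in WT. Zfp618, which in human cells partners the methylation reader UHRF2, was at 2.55 FPKM in KO and 0.33 FPKM in WT, with H3K9me3 over 100% in KO and 74.1% in WT. Zfp52 was at 9.38 FPKM in KO and 3.86 FPKM in WT, with H3K9me3 over 0% in KO and 72.1% in WT and H3.3-Flag over 11.1% in KO and 100% in WT. H3K9me3 was thus lower in KO in some and higher in others of the genes with more RNA. In the unnumbered pair Zfp933 stood at 3.68 FPKM in KO and 4.25 FPKM in WT and Zfp52 at 4.84 FPKM in KO and 7.47 FPKM in WT.

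The single Zfp gene past 2-fold in the unnumbered tables was Zfp36, at 23.3 FPKM in KO and 99.2 FPKM in WT, a difference of -2.05. In the numbered tables it was at 8.66 FPKM in KO and 17.4 FPKM in WT, a difference of -0.93. Its body carried H3.3-Flag over 100% and no H3K9me3 in either genotype. Zfp36 is abundant in macrophages, and the 10 macrophage markers summed to 12.9 FPKM in KO and 189 FPKM in WT of the unnumbered tables, with 2 of 10 in KO and 10 of 10 in WT at 1 FPKM or more. In the numbered tables they summed to 3.95 FPKM in KO and 2.92 FPKM in WT. The part of these markers' cells in the Zfp36 value was not tested.

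Next to Zfp36, Zfp947 was at 0.93 FPKM in KO and 2.72 FPKM in WT of the unnumbered tables, a difference of -0.95, with H3K9me3 over 25.9% in KO and 100% in WT. Zfp521, a repressor of fat cell formation, had a difference of -0.89 in the unnumbered tables and was also among the 18 lower genes of the numbered tables. It stood at 10.9 FPKM in KO and 21.0 FPKM in WT in the unnumbered tables, and at 4.78 FPKM in KO and 10.6 FPKM in WT in the numbered ones. Both pairs thus put it near 2-fold lower. At the other end Zfp760 stood at 6.65 FPKM in KO and 3.05 FPKM in WT, a difference of 0.92, against 0.39 in the numbered tables, with no H3K9me3 call in either genotype. Zfp697 followed with 2.85 FPKM in KO and 1.4 FPKM in WT, a difference of 0.68, against 0.73 in the numbered tables. H3K9me3 covered 21.9% of Zfp697 in KO and 77.9% in WT, and H3.3-Flag 72.0% in KO and 24.1% in WT.

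Median RNA differences by H3K9me3 class lay between -0.09 and 0.37. The 32 genes with lower cover in KO had a median RNA difference of 0.37 over 20 genes in the numbered tables and 0.02 over 25 genes in the unnumbered ones. The 27 genes with higher cover had medians of 0.01 over 15 genes and -0.01 over 18 genes. The 112 genes covered in both had 0.20 over 81 genes and -0.03 over 97 genes, beside 0.06 and 0.01 for all genes. The 82 genes with no call in either had -0.01 over 69 genes and -0.09 over 70 genes. For the numbered pair, 2 genes of the class with higher cover were 2-fold lower and 0 higher. There 1 gene with lower cover was higher and 1 lower, and of the genes covered in both 4 were higher and 1 lower. Of the 69 genes with no call 0 were higher and 11 lower, a share lower near that of all genes. Of all genes 6.5% were higher and 15.7% lower in that pair. In the unnumbered tables the single 2-fold difference, that of Zfp36, lay among the genes with no call.

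Other Zfp genes with a known role, 5 of which follow, differed by less than 2-fold in both pairs. Zfp207 was at 80.6 FPKM in KO and 61.5 FPKM in WT in the numbered tables and at 60.0 FPKM in KO and 53.1 FPKM in WT in the unnumbered ones. For the next genes the numbered pair is given before the unnumbered one. Zfp598, a ubiquitin ligase that marks collided ribosomes, was at 21.2 FPKM in KO and 17.8 FPKM in WT and at 13.5 FPKM in KO and 14.4 FPKM in WT. Zfp451, a ligase of SUMO, a small protein attached to PML and other nuclear proteins, was at 6.07 FPKM in KO and 4.67 FPKM in WT and at 7.56 FPKM in KO and 9.25 FPKM in WT. The imprint keeper Zfp445 was at 12.2 FPKM in KO and 7.67 FPKM in WT and at 16.1 FPKM in KO and 15.1 FPKM in WT. Zfp57 was at 13.5 FPKM in KO and 22.7 FPKM in WT and at 8.46 FPKM in KO and 7.47 FPKM in WT.

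Genes that act with KRAB zinc finger proteins or with H3.3 were mostly expressed in both genotypes. Of 31 such genes, 28 could be compared in the numbered tables, where 2 were at least 2-fold higher in KO and 0 lower, 7.14% and 0% against 6.5% and 15.7% of all genes, with a median difference of 0.35. For the unnumbered pair 27 could be compared, none reached 2-fold and the median was -0.07. Trim28, the shared corepressor, was at 117 FPKM in KO and 181 FPKM in WT in the numbered tables and at 106 FPKM in KO and 120 FPKM in WT in the unnumbered ones. The 2 higher genes were the H3K9 methyltransferases Setdb1, at 16.1 FPKM in KO and 6.35 FPKM in WT, and Suv39h2, at 7.14 FPKM in KO and 2.95 FPKM in WT. In the unnumbered tables neither was higher in KO. Setdb1 stood at 11.7 FPKM in KO and 13.0 FPKM in WT in those tables, and Suv39h2 at 1.29 FPKM in KO and 1.58 FPKM in WT. Atrx was at 18.2 FPKM in KO and 16.8 FPKM in WT there, and Daxx at 10.5 FPKM in both.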

How the data were processed

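ChIP was measured with 1 library per target and genotype. The deposited region lists give, per region, the authors' signal for H3.3, H3K9me3 and H3K27me3 and a score for H3 and PML. Per the submitters' processing notes the tools included Cuffdiff 2.2.1, Bowtie 1.0.0, Cufflinks 2.2.1 and TopHat2 2.0.8b, and the build was mm10. The region caller is not given in the sources used here. RNA tables deposited by the authors hold FPKM, pooled over 3 numbered samples or from 1 unnumbered sample, with 0 single-replicate columns. Read depth is unknown, and samples numbered as replicates may be technical.

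Signal times region length in kb was whole, within 0.01, for 99.8% of WT H3K9me3 regions on chromosomes 1 to 9 and X and 6.11% on chromosomes 10 to 19. A signal of 3 therefore need not mean the same on both sets, and both were also analysed alone.

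Cover was computed in pandas 2.3.3 and numpy 2.4.6 under Python 3.11.15 over RefSeq gene bodies (GRCm38.p6) on chromosomes 1 to 19 and X from 3 Mb. A gene is called covered at 50% or more. RNA differences are KO minus WT of log2(FPKM + 1) for genes at 1 FPKM or more in either genotype, and 2-fold is a description. The computations were tested on simulated data. The members, lists and rules were chosen with earlier results of these data known. Genes named have the largest H3K9me3 or RNA differences or mean FPKM, lie at cluster ends or in PML calls, or have a known role; other cluster members and the promoters printed were picked after their values were seen. Protein features and final exons were not used here.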

Additional observations from a re-analysis of the deposited data

Results flagged for a closer look

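Of 245 Zfp genes compared in both pairs of RNA tables, 23 differed by at least 2-fold in either pair, and 11 of these had the opposite sign in the unnumbered pair. Each value here is the numbered minus the unnumbered log2 difference, and none of these differences between pairs was tested. They were -5.02 for Zfp771, -3.89 for Zfp688, -3.52 for Zfp524, -2.05 for Zfp593, -1.47 for Zfp672, -1.44 for Zfp259, -1.39 for Zfp580 and -1.28 for Zfp628, all lower in KO in the numbered pair alone. They were 1.69 for Zfp933, 1.63 for Zfp52 and 1.43 for Zfp618, higher in KO in the numbered pair alone. In the unnumbered pair alone these 11 differences ran from -0.54 for Zfp52 to 0.53 for Zfp688. Some were very small, such as 0.00 for Zfp672, -0.01 for Zfp618, 0.04 for Zfp524 and 0.06 for Zfp580. The other 12 had the same sign in both pairs.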

How the results depend on the processing

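No paired analysis was possible because the numbered replicates are pooled in 1 table per genotype with no single-replicate columns, so leaving out a replicate was not possible either. Differences in cover are KO minus WT, in percentage points. The H3K9me3 difference of 3.88 over all calls was 12.3 with a minimum signal of 3 and -3.19 in the highest-signal regions. It was 11.7 on chromosomes 1 to 9 and X, -7.70 on chromosomes 10 to 19 and -4.55 without bases called in H3. At a signal of 3 the difference of 12.3 was 22.3 on chromosomes 1 to 9 and X, -2.57 on chromosomes 10 to 19 and -0.24 without bases called in H3. For all genes the H3K9me3 difference was 4.34 over all calls and 17.2 at a signal of 3. Genes with the H3K9me3 step up numbered 27, and 41 at a signal of 3, 15 in the highest-signal regions, 42 at a share of 0.25, 9 at a share of 0.75 and 10 without bases called in H3. Genes with the step down numbered 32, and 24 at a signal of 3, 35 in the highest-signal regions, 61 at 0.25, 12 at 0.75 and 26 without bases called in H3. The H3.3-HA difference of 14.6 was 2.42 at a minimum signal of 1, -4.64 at 3, -3.40 in the highest-signal regions and 5.47 without bases called in H3. For all genes the H3.3-HA difference was 15.0 over all calls and -2.87 at a minimum signal of 3. The PML difference of -9.75 was -15.2 on chromosomes 1 to 9 and X, -1.71 on chromosomes 10 to 19 and -3.95 without bases called in H3. For all genes the PML difference was -11.2, with -12.7 on chromosomes 1 to 9 and X and -8.98 on chromosomes 10 to 19. Fewer chromosomes or bases were used in those settings, and otherwise the cause was not tested. With a pseudocount of 0.1, 15 Zfp genes were 2-fold higher in the numbered tables in place of 5, and in the unnumbered ones 1 was higher in place of 0 and 6 lower in place of 1. With a minimum FPKM of 5, 2 were higher in the numbered tables. After seeing the data, chromosome 5 was left out, which gave an H3K9me3 difference of 2.44, and the long genes Zfp536 and Zfp423 were left out, which gave -1.82 for H3K9me3 and -6.22 for PML, and for scattered genes alone 0.66 in place of 8.05 for H3K9me3. The lean of H3K9me3 to the 3′ end held under each setting tried for it. Depth is unknown, so no limit of detection can be given.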
